A study of Acipenser dabryanus with 12 samples.

Results

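The set described here holds 168 of the 280408 genes in the tables, chosen as brain genes with lower transcript levels after a meal under both diets. A member averaged at least 10 TPM (a transcript share corrected for length and scaled to the same total in each library) over the 4 brain libraries and exceeded 1 TPM in at least 1 liver or spleen library. Its value of TPM + 1 in brain was also at least 2-fold lower after the meal than before it, with soybean oil and with fish oil. Of the 10282 genes that met the floors on level, called same-level genes here and including the members, these 168 are 1.63%. The members were thus selected on their brain TPM after and before the meal, and the brain falls below are a description with no test.

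The fish were Yangtze sturgeon (Acipenser dabryanus) aged 6 months, fed a soybean oil or a fish oil diet for 7 weeks, with 1 pond for each diet. Brain, liver and spleen were taken 1 h after the daily meal or 1 h before it, so there were 4 groups per tissue: soybean oil after and before the meal, and fish oil after and before the meal. Each tissue, diet and meal state has 1 library, 12 in all, and whether a library pools fish is not stated. The extraction text in the labels speaks of liver, of 3 RNA samples per group and time point and of more libraries than the 12 analysed here, so what each brain or spleen library holds rests on its tissue label. The meal cannot be told apart from the time of day and from the different fish caught, nor the diet from the pond.

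Soybean oil is a plant oil rich in linoleic acid, whereas fish oil supplies the long-chain omega-3 fatty acids EPA and DHA, and DHA is a major fatty acid of brain membranes. In vertebrates the brain receives nutrient, hormone and nerve signals from the gut around a meal, and appetite circuits of the hypothalamus and hindbrain respond to them. Liver handles absorbed nutrients, and spleen is an organ of blood and immune cells. The genes are units of a de novo Trinity assembly, which builds transcripts from the reads without a genome. The files give identifiers and do not pair them with gene names, so no function is given for any member, and the tissue labels could not be set against named marker genes.

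Both brain libraries taken before the meal stood apart in the number of genes at 1 TPM or more, in opposite directions. The soybean oil brains had 66426 after and 52435 before the meal, and the fish oil brains had 66103 after and 78832 before it. In spleen the corresponding numbers were 60507 after and 48131 before the meal under soybean oil, and 47226 after and 62193 before it with fish oil. Read depth cannot be had from TPM, so values carry no counting interval, and a lower TPM is lower relative to all other transcripts of that library.

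Together the members made up 0.577% of all TPM in the soybean oil brain after the meal, against 1.827% before it. With fish oil they made up 0.52% after the meal, against 1.829% before it. The median member stood at 10.8 TPM after and 33.4 TPM before the meal under soybean oil, and at 9.27 TPM after and 34.6 TPM before it with fish oil. The levels before the meal were thus close between the diets. The 4 highest members held 41.3% of this sum before the meal. In such bulk tissue, fewer cells of a type and less RNA per cell cannot be told apart.

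**Figure D1:**
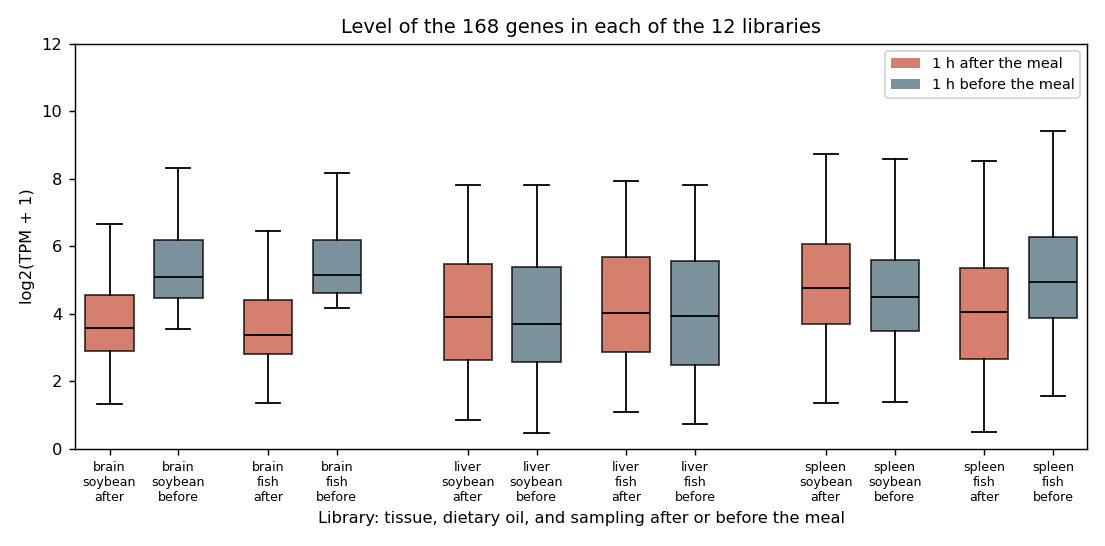
Levels of the 168 members in each of the 12 libraries, as log2(TPM + 1), by tissue, dietary oil and meal state; boxes span the quartiles with a line at the median, and whiskers run over the percentiles 5 to 95. The member medians in brain are 10.8 and 9.27 TPM after the meal, against 33.4 and 34.6 TPM before it, and in the fish oil spleen 15.4 TPM after and 30.0 TPM before the meal.

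The median meal fold in brain (after over before, on the log2(TPM + 1) scale) was -1.37 with soybean oil and -1.60 with fish oil. Over the same-level genes it was 0.19 and 0.23 for those diets. In each diet 5 members were listed at 0 after the meal, and among the others the lowest fold was -3.83 with soybean oil, of TRINITY_DN129032_c4_g3, and -5.50 with fish oil, of TRINITY_DN124605_c0_g1. The fall was at least 4-fold in both diets for 17 members and in at least 1 diet for 76. The larger of a member's falls came with soybean oil for 77 members and with fish oil for 91, and for 84 members the diets' folds lay within 0.5 on the log2 scale.

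Falls of at least 2-fold in 1 diet alone were found in 403 same-level genes with soybean oil and 910 with fish oil, against the 168 members. Among the same-level genes, members included, 5.55% were at least 2-fold lower with soybean oil and 10.5% with fish oil. At least 2-fold higher in both diets were 2.27%. Close to the threshold, 45 members had a smaller fall within 0.1 log2 inside it, and 42 same-level genes missed it by at most 0.1. The member nearest to the threshold had 16.2 TPM after the meal and 33.4 TPM before it under soybean oil. The gene just outside had 13.2 TPM after and 27.3 TPM before it.

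**Figure D2:**
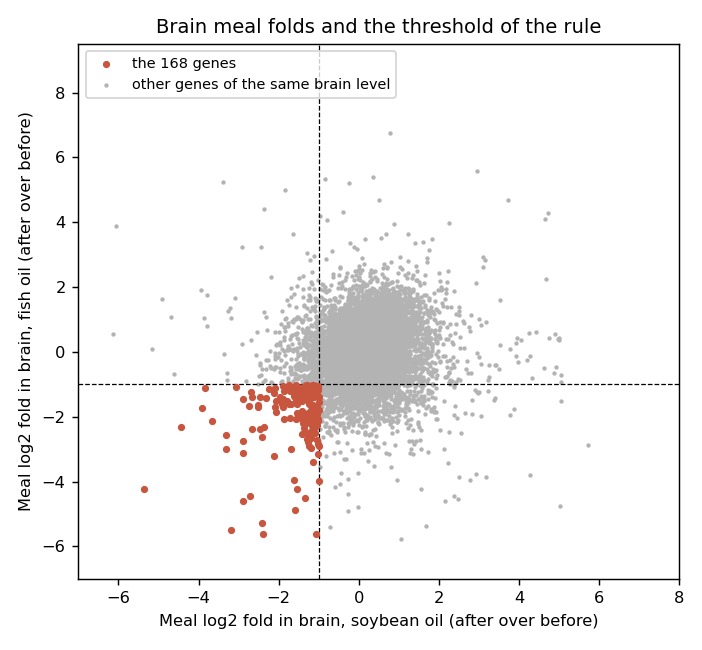
Meal log2 fold in brain with soybean oil (x axis) and with fish oil (y axis) for the same-level genes, on log2(TPM + 1), with the members marked. By the rule the members fill the corner where both folds are at or under -1, with medians of -1.37 and -1.60.

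Both brain libraries after the meal were below both libraries before it for 165 members (98.2%), against 15.9% of the same-level genes. The rule used these values and fixes most of this. In 121 members (72.0%) both libraries after the meal were at least 2-fold lower than both before it; any gene that does so is a member, so these same 121 are the 1.18% of the same-level genes that do. With the soybean oil brain before the meal as the baseline of both diets, 147 of the 168 (87.5%) met the rule. Over the same-level genes 297 (2.89%) did, all among the 571 at least 2-fold lower with soybean oil. The soybean oil side of this is the rule itself, and the rule also chose members by their fish oil value after the meal. The 2.89% is therefore not a like background. The soybean oil brain before the meal also stood apart in its gene number. With 2 libraries per state, the smallest two-sided p that an exact permutation test allows is 0.333.

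TRINITY_DN137361_c1_g2 had the highest brain level. It stood at 1023 and 990.4 TPM after the meal under soybean oil and fish oil, against 3067 and 2199.6 TPM before it. It was abundant elsewhere too, with means of 1074 TPM in liver and 2278 TPM in spleen.

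TRINITY_DN132531_c2_g1 was the other member above 1000 TPM on average in brain. It had 333.6 and 537.9 TPM after the meal under soybean oil and fish oil, against 1727 and 2673 TPM before it. Its spleen values went the other way, at 1219.6 and 1559.9 TPM after the meal and 669.7 and 851.6 TPM before it in the same order of diets. In both genes the brain values after the meal lay below both values before it, as in 165 of the 168 members, which the rule largely fixes.

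The members with the largest falls shared by both diets were near or at 0 after the meal. TRINITY_DN122211_c1_g1 was listed at 0 in both brains after the meal, against 40.4 TPM with soybean oil and 17.9 TPM with fish oil before it. TRINITY_DN124605_c0_g1 had 0.21 and 0.22 TPM after the meal under soybean oil and fish oil, against 10.02 and 54.2 TPM before it. In all, 3 members were listed at 0 and 4 were under 1 TPM in both brains after the meal. A value of 0 in a TPM table can also be a failed estimate, so no fold is given for single members listed at 0; they enter medians and counts with the pseudocount of 1 TPM.

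Members of high and low level had falls of like size. The rule requires each fall to be at least 2-fold in both diets, so the likeness is partly set by the choice of members. The 84 members with the higher brain means had median log2 folds of -1.35 with soybean oil and -1.51 with fish oil. The 84 with the lower means had -1.39 and -1.71. The members' median brain mean was 22.7 TPM, against 18.7 TPM over the same-level genes, and 20 members averaged at least 100 TPM.

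A Trinity component is a group of related transcripts numbered together, and its identifiers can share reads. Of the 168 members, 128 (76.2%) shared their component with another identifier, against 70.5% of the same-level genes. After the TPM of each component was summed, 82 of these 128 were still at least 2-fold lower in both diets, and 46 were not. The 40 members alone in their component cannot change by summing. How reads were split within components was not tested. The median member held 95.7% of its component's brain TPM, and 104 members held at least 90%. The components also held 48 other identifiers with a brain mean of at least 10 TPM, of which 20 were lower and 11 higher after the meal in both diets. Over the same-level genes 18.8% were lower and 41.2% higher in both diets.

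The members' brain levels had medians close between the diets, with single members higher in either. The median log2 fold of soybean oil over fish oil was 0.13 after the meal, with 104 members higher and 61 lower, and 0.03 before it, with 86 higher and 82 lower. Over the same-level genes it was -0.12 after the meal, with 3912 higher and 6362 lower, and -0.05 before it. Before the meal 9 members (5.36%) were at least 2-fold higher and 23 (13.7%) at least 2-fold lower with soybean oil, against 5.37% and 11.6% of the same-level genes. TRINITY_DN129726_c0_g1 had 16.7 TPM with soybean oil against 2.60 TPM with fish oil after the meal, and 44.6 against 17.5 TPM before it. TRINITY_DN140407_c0_g1 had 5.65 TPM with soybean oil against 20.3 TPM with fish oil after the meal, and 23.1 against 88.5 TPM before it.

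Many members had their highest level outside brain. The highest mean was in brain for 69 members (41.1%; 63.3% of the same-level genes), in liver for 33 (19.6%; 7.51%) and in spleen for 66 (39.3%; 29.1%). At least 1 TPM in all 12 libraries at once was reached by 137 members (81.5%), against 75.4% of the same-level genes.

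TRINITY_DN111459_c5_g2 and TRINITY_DN140055_c2_g1 had liver means of 3177 and 3057 TPM. The first had brain values of 44.6 and 24.1 TPM after the meal under soybean oil and fish oil, against 108 and 152.1 TPM before it. The second had 35.8 and 24.2 TPM after the meal, against 79.8 and 61.4 TPM before it. In liver the first had 2806 and 3051 TPM after the meal, against 2906 and 3945 TPM before it, and the second had 2584 and 2888 TPM after it, against 2509.6 and 4246 TPM before it. Both were thus lower in the fish oil liver after the meal and close between the states with soybean oil.

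Other members stood far higher in brain than elsewhere. TRINITY_DN134469_c5_g1 had means of 184.3 TPM for brain, 10.2 TPM for liver and 2.24 TPM for spleen. Its brain values were 55.7 and 26.3 TPM after the meal under soybean oil and fish oil, against 417.4 and 237.6 TPM before it. TRINITY_DN123439_c2_g1 had means of 30.9 TPM for brain, 0.80 TPM for liver and 0.42 TPM for spleen.

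In liver the members showed no common direction. Over the 162 members with a liver mean of at least 1 TPM, the median meal log2 fold was 0.05 with soybean oil and 0.14 with fish oil, against 0.06 and -0.02 over the 9231 same-level genes with that liver level. With both diets, 1 member (0.617%) was at least 2-fold lower, against 0.877% of the same-level genes, and 6 (3.7%) were at least 2-fold higher, against 1.58%. Under soybean oil 8 members (4.94%; background 4.35%) were at least 2-fold lower, and under fish oil also 8 (4.94%; background 5.95%). There were 31 members lower in both diets (19.1%; background 24.9%) and 53 higher in both (32.7%; background 27.4%).

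TRINITY_DN110121_c0_g5 went the other way in liver. It had 12.9 and 28.8 TPM after the meal under soybean oil and fish oil, against 4.12 and 10.9 TPM before it, while its brain values were 10.3 and 7.97 TPM after and 23.1 and 29.3 TPM before the meal. TRINITY_DN111329_c1_g2 had 15.8 and 5.61 TPM in liver after the meal and was listed at 0 in both livers before it.

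TRINITY_DN138491_c1_g1 was lower in liver as well. Its liver values were 9.29 and 1.12 TPM after the meal under soybean oil and fish oil, against 22.1 and 9.46 TPM before it. TRINITY_DN129032_c4_g3 had 85.2 and 74.1 TPM after the meal, against 161.5 and 185.7 TPM before it. In each of these 4 genes, chosen for it, the liver values of both diets lay on the same side.

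**Figure D3:**
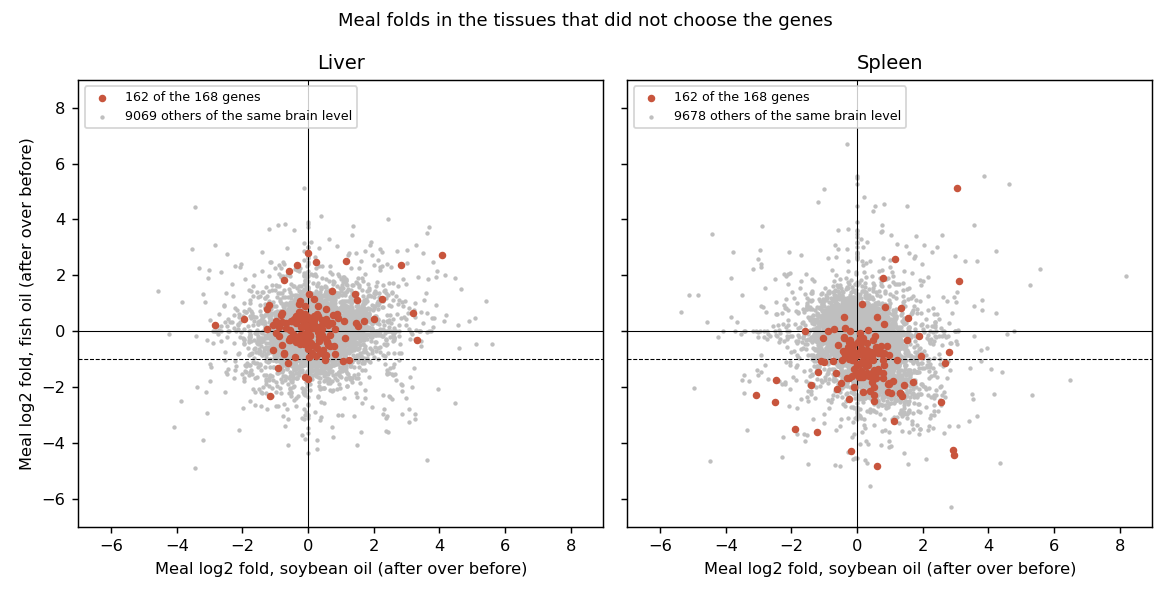
Meal log2 fold on log2(TPM + 1) with soybean oil (x axis) and with fish oil (y axis), in liver and in spleen, for members and same-level genes whose mean in that tissue was 1 TPM or more. The members centre near 0 in liver, and in spleen their medians are 0.18 with soybean oil and -1.02 with fish oil.

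Spleen differed between the diets. Over the 162 members with a spleen mean of at least 1 TPM, the median meal log2 fold was 0.18 with soybean oil and -1.02 with fish oil, against 0.02 and -0.28 over 9840 same-level genes. With fish oil 83 members (51.2%) were at least 2-fold lower after the meal, against 17.9% of the same-level genes. With soybean oil there were 10 (6.17%), against 3.8%. Both diets together gave 8 members at least 2-fold lower (4.94%; background 0.772%) and 3 at least 2-fold higher (1.85%; background 0.65%), 53 lower to any extent (32.7%; background 26.9%) and 11 higher (6.79%; background 11.0%). In 93 members (57.4%; background 41.0%) the level was higher after the meal with soybean oil and lower with fish oil.

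The fish oil spleen after the meal was the lowest of the 4 spleen libraries for 121 of 162 members (74.7%), against 45.6% of the same-level genes. Summed over the members, TPM was 17833 after and 16169 before the meal in the soybean oil spleens, and 10870 after and 20509 before it in the fish oil spleens. When the fish oil spleen after the meal was set against the soybean oil spleen before the meal instead, 30.2% of the members were at least 2-fold lower, against 8.78% of the same-level genes. The share moves with the baseline library, and the part that the spleen libraries' differing gene numbers play in it was not tested.

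The spleen share differed with the behaviour of a gene in the fish oil brain. Genes at least 2-fold lower in brain with fish oil but not with soybean oil were at least 2-fold lower in the fish oil spleen in 532 of 847 cases (62.8%). Genes lower in brain with soybean oil only did so in 50 of 394 (12.7%), and genes lower with neither in 1098 of 8437 (13.0%). In the soybean oil spleen the shares were 6.17% for the members, 5.33% for the soybean-only genes, 3.9% for the fish-only genes and 3.67% for the rest. The members' 51.2% therefore lay below that of the fish-only genes. After quantile normalization of all libraries the fish oil spleen shares were 42.0% for the members, 9.14% for the soybean-only genes, 48.8% for the fish-only genes and 6.68% for the rest.

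**Figure D4:**
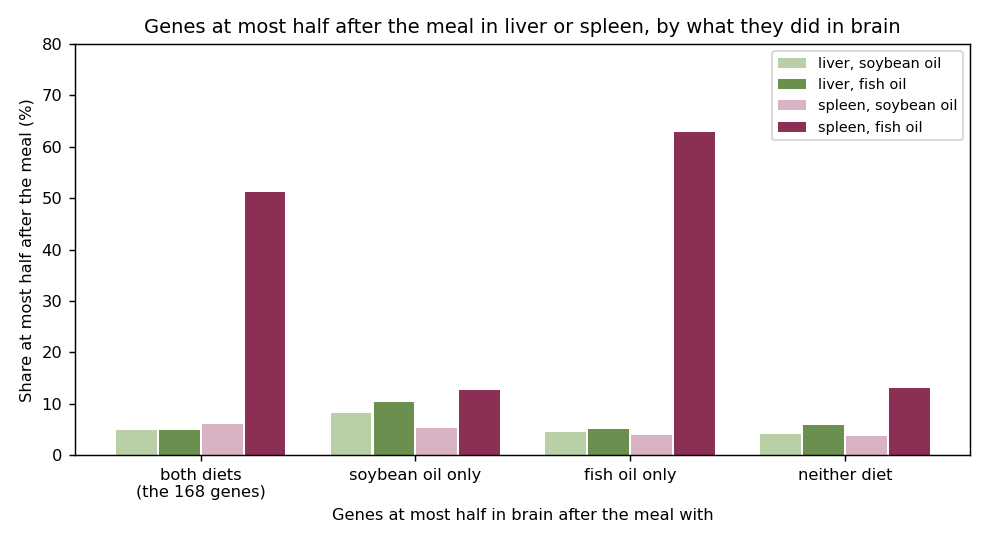
Share of genes (percent) at least 2-fold lower after the meal in liver and spleen, for each diet, by their behaviour in brain. In the fish oil spleen the bars reach 51.2% for members, 12.7% for genes lower in brain with soybean oil only, 62.8% with fish oil only and 13.0% with neither.

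By the tissue where a member was highest, the fish oil spleen share was 31 of 65 (47.7%) for members highest in brain, 18 of 31 (58.1%) for liver and 34 of 66 (51.5%) for spleen. Over the same-level genes it was 17.8% for those highest in brain, 28.8% for liver and 15.4% for spleen. By brain level, it was 47 of 82 members above the members' median brain mean (57.3%; 14.9% of the same-level genes above it) and 36 of 80 of the others (45.0%; 19.9%).

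TRINITY_DN121087_c1_g1 was lower in both spleens after the meal, at 13.8 and 2.20 TPM with soybean oil and fish oil, against 54.2 and 35.3 TPM before it. TRINITY_DN128084_c4_g1 had 1.81 and 0.57 TPM after the meal, against 15.0 and 7.98 TPM before it. In both genes the values after the meal lay below both values before it. The limma log2 fold in spleen was -2.70 (SE 0.51) for the first, with an adjusted p of 0.778 over all genes, and -2.51 (SE 0.45) for the second, with an adjusted p of 0.755.

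Other members were higher in spleen after the meal. TRINITY_DN106610_c2_g2 had 22.1 TPM after and 1.70 TPM before the meal under soybean oil, and 367.4 TPM after and 105.5 TPM before it with fish oil. In brain the same gene was listed at 0 after and had 14.1 TPM before the meal under soybean oil, and had 7.73 TPM after and 27.8 TPM before it with fish oil. TRINITY_DN124889_c7_g1 had 7.21 and 34.3 TPM in the spleens after the meal and was listed at 0 in both before it.

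Over the diets, spleen members stood higher with soybean oil after the meal and lower before it. The median log2 fold of soybean oil over fish oil was 0.82 after the meal, with 144 members higher and 17 lower, 63 of them at least 2-fold higher (38.9%; background 15.0%), and -0.37 before it. The same-level genes had 0.17 after the meal, with 5919 higher and 3874 lower, and -0.15 before it. In liver the members' medians were -0.12 after and -0.12 before the meal, against -0.19 and -0.29 over the same-level genes.

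After the meal, 4 members (2.38%) were higher in all 4 pairs of liver and spleen libraries and 13 (7.74%) were lower in all 4, shares near the 2.59% and 7.09% of the same-level genes. TRINITY_DN138987_c2_g4 was lower in every tissue and diet. It had 158 and 133.8 TPM in brain after the meal under soybean oil and fish oil, against 320.8 and 288.4 TPM before it, and 164.4 and 116.9 TPM in spleen after it, against 352.4 and 246.6 TPM before it. TRINITY_DN119086_c0_g1 was lower in brain, at 19.1 and 16.9 TPM after the meal against 63.4 and 53.9 TPM before it. It was higher in liver, at 47.0 and 42.8 TPM after against 16.1 and 19.2 TPM before it. In spleen it was also higher, at 76.24 and 69.57 TPM after against 25.55 and 49.45 TPM before it.

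**Figure D5:**
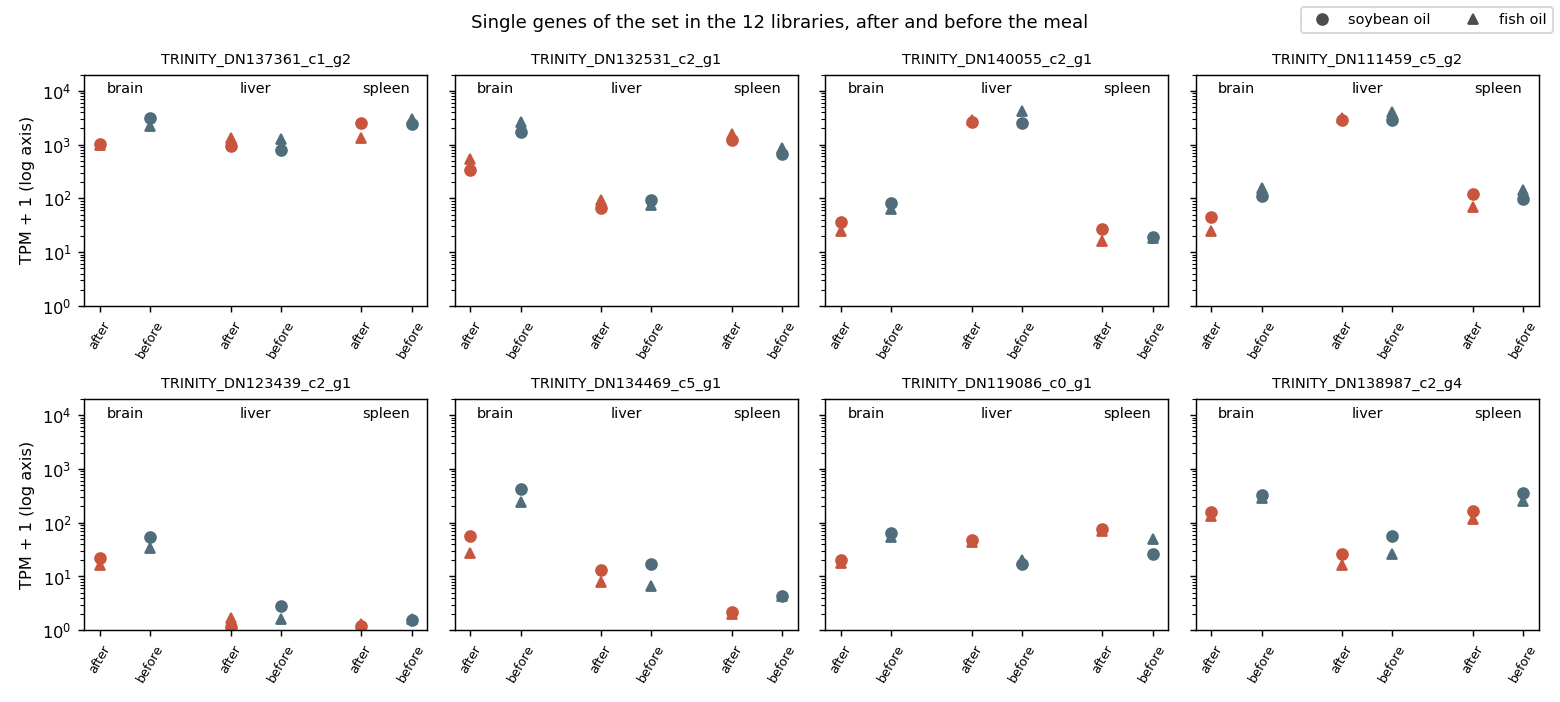
Level of 8 single members as TPM + 1 on a log axis, in each tissue after (red) and before (blue-grey) the meal, with circles for soybean oil and triangles for fish oil, 1 library a point. TRINITY_DN138987_c2_g4 is lower after the meal in every tissue and diet, and TRINITY_DN119086_c0_g1 is lower in brain and higher in liver and spleen.

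Of the measures that did not choose the members, the liver and spleen folds were tested with limma on log2(TPM + 1) over 64626 genes, 167 members among them. For TRINITY_DN138987_c2_g4 the limma log2 fold of the meal across both tissues was -0.98 (SE 0.17), with an adjusted p of 1 over all genes. The spread came from the 8 liver and spleen libraries, with 2 residual degrees of freedom (3 for the meal across both tissues), since each condition has 1 library. That spread is the difference between the diets' meal folds in liver and in spleen. For the meal across both tissues it also holds the difference between the tissues' meal folds. It is thus not a spread of replicates, and the diet difference of the spleen folds is counted in it. At an adjusted p under 0.05, limma called 0 of 64626 genes (0.0%) for the meal in liver, the meal in spleen, the meal across liver and spleen, the diet in liver and the diet in spleen. The members' lowest limma adjusted p was 1 for the meal in liver and 0.728 for the meal in spleen. At an unadjusted p under 0.05 in limma, 9 members (5.39%; 3.73% of all genes tested) passed for the meal in liver and 12 (7.19%; 4.02%) for the meal in spleen. For the meal across liver and spleen 12 (7.19%; 2.17%) passed. For the diet, 9 (5.39%; 3.62%) passed in liver and 7 (4.19%; 4.3%) in spleen. Leaving out 1 library moved some of these limma counts at an unadjusted p by more than 1.5 times and left others within that range. Without 1 of the 4 livers, 10 to 11 members passed for the meal in spleen (5.99% to 6.67%; 2.05% to 2.22% of all genes). Without 1 of the soybean oil spleens, the meal fold in spleen was that of the fish oil pair alone, with a member median of -1.02. Without 1 of the fish oil spleens it was that of the soybean oil pair alone, with a member median of 0.18. The spread of these fits came from the liver libraries alone, so no count is given. For the diet in spleen the members' count moved by more than 1.5 times whichever of the 8 libraries was left out. It fell to 1 to 3 members without 1 of the 4 livers (0.606% to 1.8%; 2.22% to 2.44% of all genes). It rose without 1 of the 4 spleens, where 1 library then stood for 1 diet, and the share over all genes tested rose too. For the meal across both tissues, leaving out 1 of the fish oil spleens removed the fish oil pair of spleen. Most members that then passed were higher after the meal, as were most of all genes that passed. In the fit to all 8 libraries, 8 of the members that passed were lower and 4 higher. Of all genes that passed in that fit, 641 were lower and 762 higher. In liver, leaving out 1 of the 4 livers lowered the members' counts for the meal and for the diet. The shares over all genes tested fell too. In these fits 1 library stood for 1 diet or meal state. Leaving out 1 of the 4 spleens gave 11 members for the meal in liver (6.59% to 6.63%; 5.74% to 6.17% of all genes). For the diet in liver it gave 13 to 16 (7.78% to 9.58%; 5.92% to 6.45%). At an adjusted p under 0.05 each of these fits called 0 genes.

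A term for the difference between the diets' meal folds in spleen, added after the data were seen, also called 0 of 64626 genes (0.0%) in limma, with a lowest adjusted p among members of 0.16. At an unadjusted p under 0.05 in limma, 36 of 167 members (21.6%) passed, against 20.3% of all genes tested. The higher fold was under soybean oil in 35 of these 36 members. The same held for 10744 of the 13123 genes that passed, so this direction was not particular to the members. That fit takes its spread from the liver libraries alone, with 1 residual degree of freedom, so the diet difference in spleen is a description of these libraries and was not shown by a test of single genes.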

How the data were processed

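RNA sequencing of 12 libraries was deposited as TPM per Trinity gene. Per the labels' protocols, reads were trimmed and assembled with Trinity; the quantifier is not given in the sources used here. The authors deposited TPM values, which sum to a constant per library and keep no depth, so a fall in one gene is relative to all others. Libraries were grouped by tissue, diet and meal. Folds were taken on log2(TPM + 1), after over before and soybean over fish oil. The brain libraries chose the members and were kept out of the test's spread. limma 3.58.1 in R 4.3.3 was run with trend and robust moderation and Benjamini-Hochberg adjustment. It tested genes that reached 1 TPM in 2 or more of the 8 liver and spleen libraries. Its median fold estimates were checked on simulated data, with planted folds far larger than most member folds in liver and spleen. That check does not show whether the fit can call smaller folds. Tables were made with pandas 2.3.3 in Python 3.11.15. Single genes were named by rule: up to 2 per direction with the largest change shared by both diets, or the highest level. The members, lists and tests were chosen with earlier results of these data known. Alternatives were the pseudocount, floors, scaling, component sums, the libraries in the fit and leaving out each library.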

Additional observations from a re-analysis of the deposited data

Results flagged for a closer look

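The members' median meal log2 folds in spleen were 0.182 with soybean oil and -1.019 with fish oil, and in liver 0.05 and 0.138, whereas the brain direction was set by the choice of members. The median log2 fold of soybean oil over fish oil in spleen was 0.816 after the meal and -0.369 before it, opposite in sign. These differences were not tested over the set.

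Single members were higher after the meal outside brain with both diets and lower in brain, and the difference between tissues was not tested. TRINITY_DN111329_c1_g2 had 15.75 TPM with soybean oil and 5.61 TPM with fish oil in liver after the meal, listed at 0 before it. TRINITY_DN110121_c0_g5 had liver log2 folds of 1.44 and 1.33. TRINITY_DN124889_c7_g1 had 7.21 TPM and 34.33 TPM in spleen after the meal, listed at 0 before it. TRINITY_DN106610_c2_g2 had spleen log2 folds of 3.1 and 1.79.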

How the results depend on the processing

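The number of members moved with the rule: 291 with a brain floor of 5 TPM, 97 with 20 TPM, 295 with the brain libraries scaled to 1 median (all 168 among them), 297 with the soybean oil brain before the meal as the fish oil baseline (147 shared), and 571 to 1078 when 1 diet alone was used, leaving out each library. It was 184 with a pseudocount of 0.1, 244 after quantile normalization (145 shared) and 141 when components were summed. The liver median with soybean oil was 0.159 at a floor of 5 TPM, -0.078 after quantile normalization and 0.113 over components, and with fish oil it was 0.062 after quantile normalization and 0.066 over components. The liver mean over diets was -0.037 after quantile normalization and 0.05 to 0.138 leaving out a library; in spleen it was -1.019 to 0.182, which changes sign with the diet kept. The spleen share was 30.2% against the soybean oil baseline. Without a filter, limma called 100 of 280408 genes for the meal in liver and 277 for the meal in spleen. It called 133 for the diet in liver and 323 for the diet in spleen. With the meal counted as spread it called 31 of 64626 genes for the diet in spleen. There were 0 members among them, which says little about the members where so few of all genes were called. The causes were not tested. Of 52 recomputed values of named members 4 moved and 0 reversed, but only the brain values could count as moved. Those of liver and spleen were checked only for their sign and their side of the adjusted p threshold of 0.05. TRINITY_DN109301_c3_g1 was listed at 0 in both soybean oil livers, against 20.53 TPM after and 32.19 TPM before the meal with fish oil. Its liver diet fold, set by the pseudocount, grew in size with a pseudocount of 0.1 and was not counted as moved. Single genes were picked for pairs of 1 sign, which a changed pseudocount cannot reverse. The brain diet fold of TRINITY_DN119727_c4_g1 moved from 0.87 to 0.97 with a pseudocount of 0.1 and to 1.0 after quantile normalization. Folds of members listed at 0 in a library grew in size with a pseudocount of 0.1, which sets them. With 1 library per condition, no brain value has a replicate check.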
